A study of Rattus norvegicus with 54 samples.

Results

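The genes described here are 10 members of the Wnt pathway, taken by name from the first column of every count table. They are the ligands Wnt2 and Wnt5a, the secreted antagonists Sfrp1, Sfrp2, Sfrp4, Frzb, Wif1, Dkk2 and Dkk3, and Axin2, a target of the pathway. All 10 were found in the tables, which list 40319 genes, and all 10 passed the filter on low counts in each of the 9 comparisons. RNA came from the left ventricle of 18 female athymic rats of the strain F344/NJcl-rnu/rnu, 8 weeks old, which lack a normal T cell compartment, and was collected 1 week after surgery. The 6 sham hearts had surgery without ligation of the coronary artery. The 6 untreated MI hearts had a ligated left anterior descending artery and no further treatment. The 6 cell sheet-treated hearts had the same ligation and then a sheet laid on the epicardium, made of human endothelial progenitor cells on smooth muscle cells derived from human marrow stromal cells. Each heart gave an infarct zone piece from the anterior wall, a border zone piece from the lateral wall and a remote zone piece from the septum, so that 54 libraries form 9 groups of 6. The pieces of sham hearts are named for the same positions and hold no infarct.

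Wnt proteins are secreted lipid-modified ligands that bind Frizzled receptors together with LRP5/6 or with ROR and RYK co-receptors. In the canonical branch the signal stabilizes beta-catenin, which enters the nucleus and works with TCF/LEF factors on targets such as Axin2. Secreted frizzled-related proteins (SFRPs, among them Frzb, also called Sfrp3) and Wif1 bind Wnt proteins outside the cell, whereas Dickkopf proteins such as Dkk2 bind LRP5/6. Dkk3 is a divergent Dickkopf protein whose action on LRP5/6 is disputed. In the healing heart these proteins are made mostly by fibroblasts and by epicardial and mural cells, and the adult ventricle is regarded as a tissue of low canonical Wnt activity.

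Promoter windows were looked up for the members because TCF/LEF factors bind a short motif near many targets. RefSeq windows on GRCr8, an assembly other than that of the counts, were at hand for 6 of the 10 members (Sfrp2, Frzb, Wif1, Wnt5a, Wnt2 and Axin2). Each window of 300 bases was searched on both strands for the letters CTTTGAT and CTTTGAA, which differ only in their last letter, so that a place on a strand can match only 1 of them, while matches on opposite strands may overlap. Either motif was held by 8.73% of all 33469 windows, and at least 2 matches by 0.571%. Among the other Wnt pathway genes listed further on, 8 of 54 windows (14.8%) held a match. Axin2 had 2 matches and the other 5 member windows had none. The 250 bases before the start are shown for Axin2 (chr10:94398535-94398784, plus strand) and for Wnt5a (chr16:3703415-3703664, plus strand), the members with a window that were higher in the cell sheet-treated border zone, with the matches in capitals.
Axin2: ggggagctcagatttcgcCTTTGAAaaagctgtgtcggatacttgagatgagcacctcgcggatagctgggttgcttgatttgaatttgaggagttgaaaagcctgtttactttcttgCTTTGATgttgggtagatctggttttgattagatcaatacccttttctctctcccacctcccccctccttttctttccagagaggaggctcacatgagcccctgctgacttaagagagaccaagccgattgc
Wnt5a: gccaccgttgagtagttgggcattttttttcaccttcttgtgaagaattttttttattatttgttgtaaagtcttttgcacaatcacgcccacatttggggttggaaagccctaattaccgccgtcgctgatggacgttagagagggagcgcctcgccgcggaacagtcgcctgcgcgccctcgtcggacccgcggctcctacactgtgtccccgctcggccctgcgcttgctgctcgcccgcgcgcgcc
In Axin2 the matches ended 226 and 126 bases before the start, both on the strand of the gene. A match describes letters and does not show binding.

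The libraries held between 12699204 and 23397754 counts on genes. Cardiomyocyte markers (8 genes such as Myh6 and Tnnt2) were present in all 54 libraries, and their summed level ran from 165 to 69350 CPM (counts scaled to a common library size). Some libraries stood apart. In sham replicate 5 the macrophage markers summed to 11070 CPM in the infarct zone, where the other 5 sham libraries lay between 283 and 575. Its cardiomyocyte markers summed to 21170 CPM there (others 54340 to 69350) and its myofibroblast markers to 556 CPM (others 85.1 to 147). The border and remote zone libraries of this heart stood apart in the same way. Cell sheet replicate 1 had the fewest cardiomyocyte transcripts in the border zone (165 CPM, others 8453 to 28940). Its remote zone library had fibroblast markers at 40380 CPM, where the other 5 lay between 3712 and 11740. Lung markers reached 182 and 183.5 CPM in the border zone of untreated MI replicate 3 and cell sheet replicate 4 and 61.4 CPM in the infarct zone of cell sheet replicate 6, against at most 9.06 CPM in any other library. These libraries were kept, and calls on members that changed without sham replicate 5 or cell sheet replicate 1 or 3 are given with the value or counted among the fits that left out 1 library. The tissue is bulk tissue, so fewer cells of a type and less RNA per cell cannot be told apart.

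**Figure D1:**
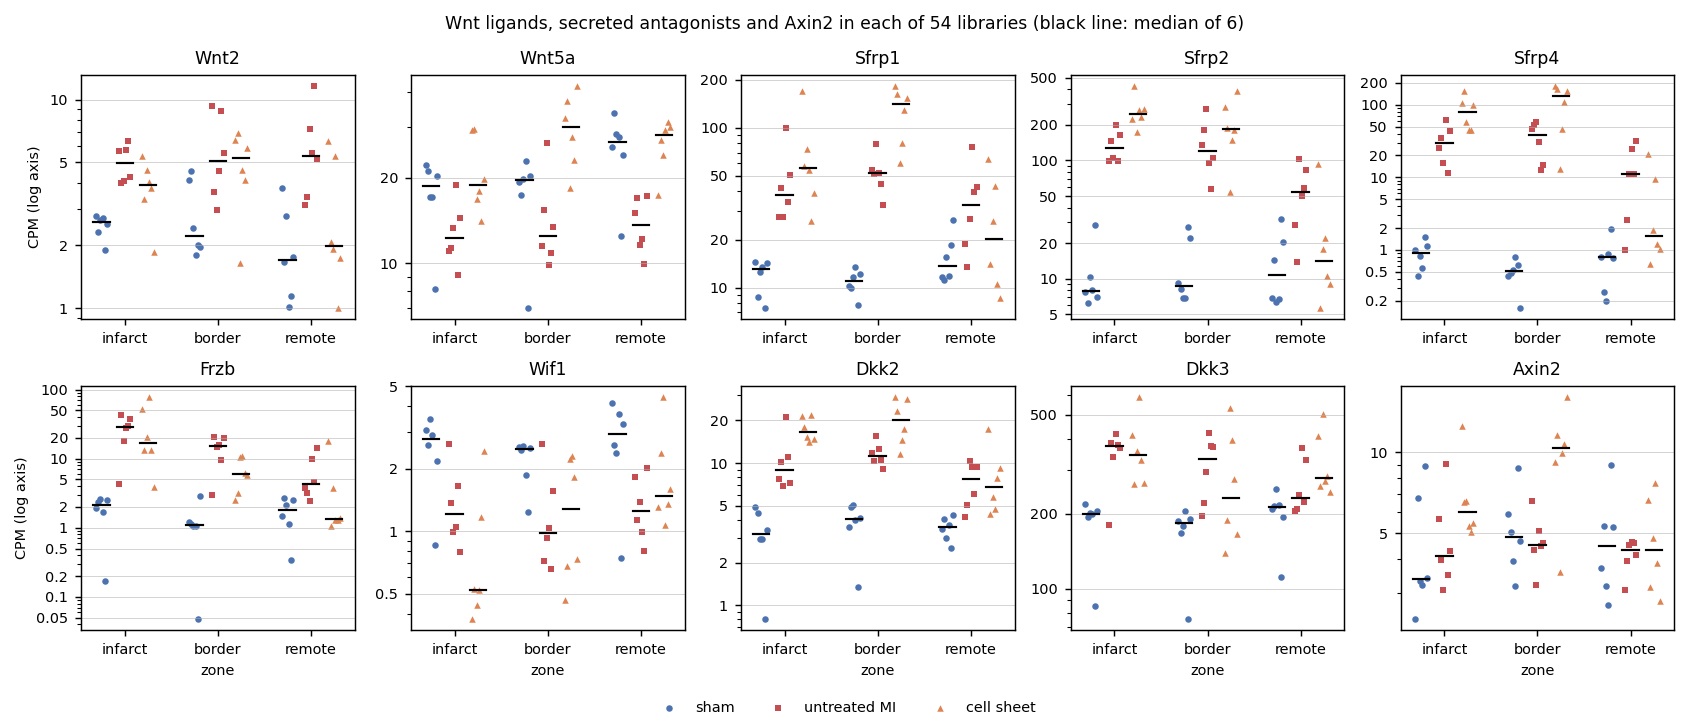
Level of each member in all 54 libraries, in CPM on a log axis, by zone and treatment; 1 point is 1 library and the black line is the median of 6. Sfrp1, Sfrp2, Sfrp4, Frzb and Dkk2 sit higher in the untreated MI than in the sham libraries in the infarct and border zones without overlap, while Axin2 overlaps between sham and untreated MI in every zone.

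The comparison of untreated MI with sham shows how the RNA levels of the 10 members differed after an infarct in each zone. In the infarct zone 7 of the 10 members passed the test (edgeR's quasi-likelihood F test with Benjamini-Hochberg adjustment over all genes tested, threshold 0.05), all of them higher, where 49.9% of all genes tested passed. In the border zone 7 members were called, again all higher, against 41.7% of all genes. In the remote zone 7 were called, 6 higher and 1 lower, against 25.8% of all genes. The median log2 fold change of the 10 members was 1.36 for the infarct, 1.34 for the border and 1.13 for the remote zone, where the median over all genes tested was -0.02, -0.02 and -0.04. The largest rises in each zone were those of Sfrp4, Sfrp2 and Frzb, Wnt2 rose in all zones, and Axin2 passed the test in none. Without sham replicate 5 the counts were 9, 8 and 8 members, since Wif1 was then called lower in each zone and Wnt5a also in the infarct zone. The genes called over the whole table rose in the same fits from 7866, 6517 and 3952 to 10434, 9641 and 7177.

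Wnt2 encodes a ligand of the canonical branch. Its infarct zone level lay between 1.89 and 2.77 CPM in sham (median 2.59) and between 3.96 and 6.31 CPM in untreated MI (median 4.97), with no overlap. The log2 fold change was 1.00 ± 0.18 (SE, n = 6 per group, adjusted p = 0.00139). The remote zone had the largest change, 1.58 ± 0.40 (adjusted p = 0.0118), with sham libraries between 1.01 and 3.79 CPM and untreated MI libraries between 3.13 and 11.7 CPM, which overlap slightly. In the border zone the change was 1.06 ± 0.35 (adjusted p = 0.0313) with overlapping groups, and this call was lost in 5 of the 12 fits that left out 1 library.

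Wnt5a encodes a ligand best known for signalling through ROR2 without beta-catenin, and it moved the other way. Remote zone libraries of sham hearts lay between 12.45 and 33.7 CPM (median 26.6) and untreated MI libraries between 9.95 and 17.2 CPM (median 13.6). Sham replicate 5 was the lowest of the sham libraries, and the other 5 sham libraries lay above all untreated MI libraries. Wnt5a fell by 0.87 ± 0.21 on the log2 scale (adjusted p = 0.0106). Infarct zone medians were 18.7 CPM in sham and 12.3 CPM in untreated MI, with a log2 fold change of -0.45 ± 0.23 (adjusted p = 0.125) that became -0.60 ± 0.17 (adjusted p = 0.00806) without sham replicate 5. The border zone value was -0.28 ± 0.29 (adjusted p = 0.462).

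Sfrp1, a secreted inhibitor that binds Wnt proteins through a frizzled-like domain, rose in all zones. Sham libraries lay between 7.44 and 14.4 CPM in the infarct zone (median 13.03) and untreated MI libraries between 27.5 and 100.5 CPM (median 38.2). The border zone was alike, with 7.80 to 13.5 CPM (median 10.98) in sham and 33.0 to 78.95 CPM (median 51.9) in untreated MI. Neither pair of groups overlapped, and the log2 fold changes were 1.99 ± 0.32 (adjusted p = 0.000805) and 2.27 ± 0.20 (adjusted p = 7.6e-05). The remote groups overlapped, and their change of 1.19 ± 0.38 (adjusted p = 0.0345) was lost in 7 of 12 fits that left out 1 library.

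Sfrp2, which is known as a product of activated fibroblasts and binds both Wnt proteins and procollagen proteinases, rose from a median of 7.95 CPM in the sham infarct zone (lowest 6.25, highest 28.3) to 126 CPM in untreated MI (98.5 to 199.5). Border zone libraries of sham hearts lay between 6.83 and 27.6 CPM (median 8.67) and untreated MI libraries between 57.2 and 273.5 CPM (median 119.5). The groups did not overlap in either zone, although sham replicate 5 was the highest sham library in both, at 28.3 and 27.6 CPM where the median of the other sham libraries was 7.78 and 8.14 CPM. The log2 fold changes were 3.56 ± 0.40 (adjusted p = 9.11e-05) and 3.39 ± 0.48 (adjusted p = 0.000593). Medians of the remote zone were 10.7 and 54.02 CPM, with a log2 fold change of 1.94 ± 0.52 (adjusted p = 0.016) and overlapping ranges.

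Sfrp4, another SFRP that is often measured in scar and connective tissue, had the largest change of the 10 members in every zone. It had few counts in sham hearts, at 0.436 to 1.49 CPM in the infarct zone (6 to 26 counts) and 0.158 to 0.807 CPM in the border zone (2 to 13 counts). Untreated MI libraries held 11.3 to 61.3 CPM (median 29.9) in the infarct zone and 12.7 to 58.6 CPM (median 38.3) in the border zone. All untreated MI libraries of these zones were above all sham libraries. The fitted changes were 34.2-fold for the infarct zone (log2 5.10 ± 0.47, adjusted p = 4.33e-05) and 69.2-fold for the border zone (log2 6.11 ± 0.50, adjusted p = 6.64e-05), and their size rests on the few counts in sham. The remote zone had 0.198 to 1.94 CPM (median 0.786) in sham and 0.992 to 31.3 CPM (median 10.9) in untreated MI. There the log2 fold change was 4.04 ± 0.79 (adjusted p = 0.00374).

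Frzb, an SFRP first described in cartilage, went from 0.172 to 2.56 CPM in the sham infarct zone (median 2.16) to 4.29 to 42.2 CPM in untreated MI (median 28.7). Border zone levels of sham hearts lay between 0.0478 and 2.84 CPM (median 1.09) and those of untreated MI hearts between 2.98 and 20.6 CPM (median 15.4). There was no overlap in these zones, and the narrowest gap was that between the highest sham and the lowest untreated MI library of the border zone. The log2 fold changes were 3.81 ± 0.58 (adjusted p = 0.000565) and 3.53 ± 0.64 (adjusted p = 0.00208). The remote zone change was 1.91 ± 0.53 (adjusted p = 0.0189), with sham between 0.3425 and 2.73 CPM and untreated MI between 2.44 and 14.5 CPM.

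Dkk2, a Dickkopf protein that binds LRP5/6, rose in each zone. Its level was 0.801 to 4.93 CPM in the sham infarct zone (median 3.18) and 6.87 to 21.3 CPM in untreated MI (median 8.945). Its border zone level was 1.34 to 5.05 CPM (median 4.04) in sham and 9.07 to 15.6 CPM (median 11.2) in untreated MI. These groups did not overlap, and the log2 fold changes were 1.72 ± 0.40 (adjusted p = 0.00473) and 1.62 ± 0.27 (adjusted p = 0.00156). The remote zone change was 1.08 ± 0.25 (adjusted p = 0.00802), with 2.51 to 4.35 CPM in sham and 4.20 to 10.4 CPM in untreated MI.

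Dkk3, the divergent Dickkopf protein, changed less. Sham libraries of the infarct zone held 85.4 to 218.6 CPM (median 200) and untreated MI libraries 180.6 to 420.5 CPM (median 374). The border zone had medians of 184 and 333 CPM, and in both zones the groups overlapped. The log2 fold changes were 0.90 ± 0.24 (adjusted p = 0.00884) and 0.91 ± 0.25 (adjusted p = 0.0147). Dkk3 was not called in the remote zone (0.39 ± 0.20, adjusted p = 0.162).

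Wif1, a secreted inhibitor of another family, was the antagonist whose medians in untreated MI lay below those in sham in every zone. Infarct zone libraries of sham hearts had 0.8585 to 3.47 CPM (median 2.77) and untreated MI libraries 0.790 to 2.65 CPM (median 1.21). The remote zone medians were 2.94 and 1.26 CPM. Sham replicate 5 was the lowest sham library in each zone, and the log2 fold changes of -0.83 ± 0.36 (infarct), -0.80 ± 0.35 (border) and -1.04 ± 0.37 (remote) missed the threshold (adjusted p = 0.0736, 0.0858 and 0.0547). Without that library they were -1.02 ± 0.31 (adjusted p = 0.0114), -0.93 ± 0.35 (adjusted p = 0.0365) and -1.24 ± 0.28 (adjusted p = 0.00257). With all libraries DESeq2 called Wif1 lower in the infarct and remote zones (adjusted p = 0.0386 and 0.0336), and edgeR did in the remote zone when at least 10 counts were required in every library (adjusted p = 0.0473). The counts behind these values were low, 11 to 57 per library over sham and untreated MI.

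Axin2, which is induced by canonical signalling and in turn promotes the destruction of beta-catenin, overlapped between the groups in all zones. Its infarct zone level lay between 2.39 and 8.93 CPM in sham (median 3.37) and between 3.06 and 9.08 CPM in untreated MI (median 4.12). The border zone medians were 4.84 and 4.525 CPM, and the remote zone medians 4.485 and 4.32 CPM. The log2 fold changes of 0.06 ± 0.37, -0.15 ± 0.25 and -0.23 ± 0.28 were smaller than their errors (adjusted p = 0.91, 0.649 and 0.566). Sham replicate 5 was the highest sham library in each zone, and without it the values were 0.36 ± 0.33, 0.06 ± 0.21 and 0.04 ± 0.22, which turns the sign in the border and remote zones.

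Markers of other cell types moved with these changes. Of 8 fibroblast markers, 6 were called higher in the untreated infarct zone and 7 each in the other 2 zones. Over all genes tested, 49.9%, 41.7% and 25.8% were called in the infarct, border and remote zones. Their summed level was 4773 to 6934 CPM in sham and 14830 to 41580 CPM in untreated MI in the infarct zone, and 3659 to 5630 against 6904 to 24830 CPM in the remote zone. Of 8 cardiomyocyte markers, 8, 8 and 4 were called lower. Macrophage markers had 4, 5 and 2 of 6 called higher, the last near the share of all genes. Myofibroblast markers had 6, 5 and 5 of 6 called higher. Of 7 mural markers, 3, 2 and 2 were called higher and 2, 2 and 3 lower. The mesothelial and epicardial list had 3 of 6 higher and 1 lower in the infarct zone and 0 called in the border and remote zones. Its infarct zone sum was 47.9 to 156 CPM in sham and 194 to 316 CPM in untreated MI. Neutrophil markers had 4 of 5, 4 of 5 and 3 of 3 tested genes higher. Endothelial markers had 1, 1 and 0 of 6 lower and 0 higher. No fibroblast or cardiomyocyte marker was at 0 in all libraries of a group. The part of these shifts in the values of the members was not tested.

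**Figure D2:**
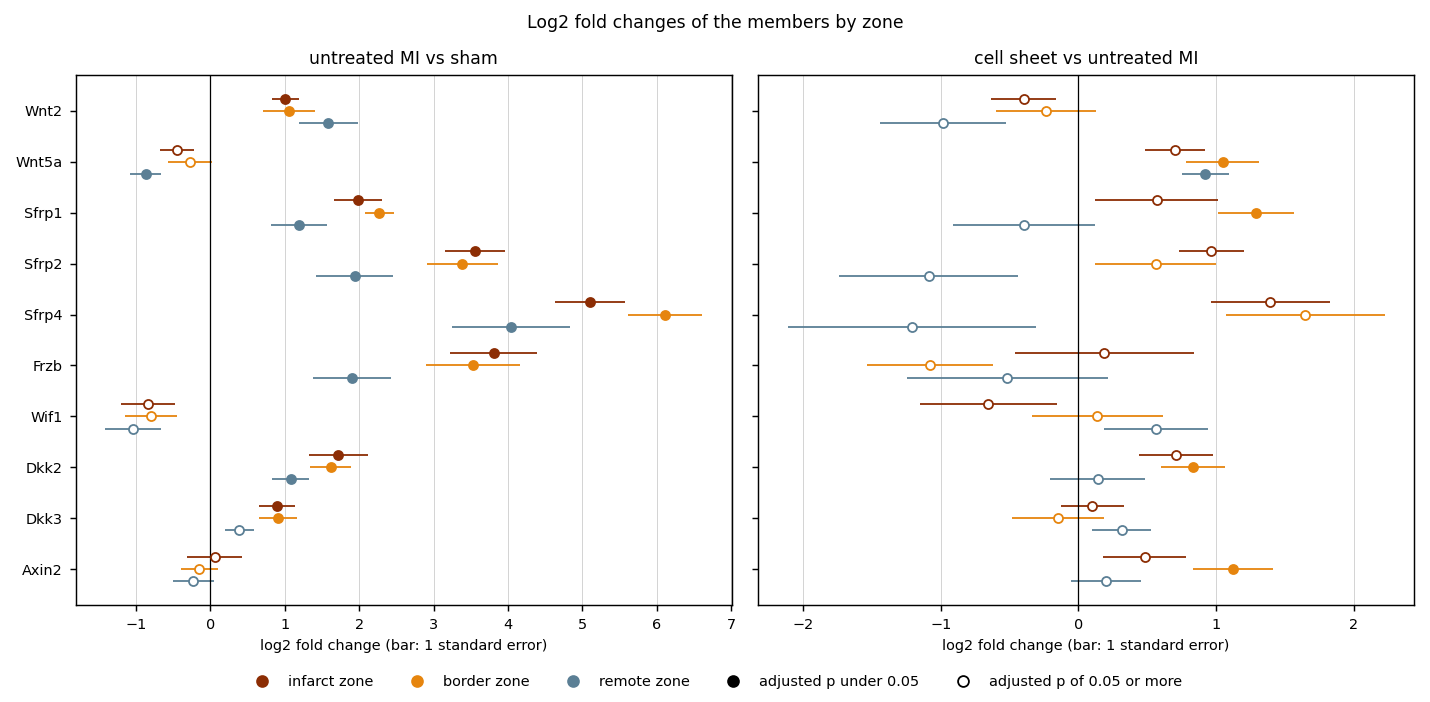
Log2 fold changes of the 10 members, untreated MI against sham on the left and cell sheet against untreated MI on the right, with bars of 1 standard error; filled points have an adjusted p under 0.05. On the left 7 members are filled in each zone, and on the right 4 are filled in the border zone (Wnt5a, Sfrp1, Dkk2, Axin2), 1 in the remote zone (Wnt5a) and none in the infarct zone.

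The comparison of cell sheet-treated with untreated MI hearts asks how hearts with and without the sheet differed after the same ligation. The paper lists a larger share of deaths among untreated MI than among cell sheet-treated rats. Whether infarcts of the hearts compared were alike was not tested. In the border zone 4 of the 10 members passed the test, all of them higher with the sheet, against 18.0% of all genes tested. They were Wnt5a, Sfrp1, Dkk2 and Axin2. In the remote zone 1 member was called, Wnt5a, against 17.1% of all genes. In the infarct zone none was called, and neither was any of the 16196 genes tested (0.0%), of which 1341 had an unadjusted p under 0.05 and 85 passed in DESeq2. The pieces of this zone were uneven, with cardiomyocyte markers at 3011 to 33660 CPM in untreated and 856 to 31040 CPM in treated libraries. The part of this spread in the lack of calls was not tested, and that lack does not show that the sheet had no effect there. The median log2 fold change of the members was 0.70 in the border, -0.13 in the remote and 0.52 in the infarct zone, where the median over all genes tested lay between -0.01 and 0.01. The untreated MI libraries serve both in this comparison and in that with sham, so that a high or low value in them moves both.

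Wnt5a was the member that was called in both zones. Border zone libraries of untreated MI hearts lay between 9.85 and 26.4 CPM (median 12.4), and those of cell sheet-treated hearts between 18.4 and 41.95 CPM (median 30.0). Untreated MI replicate 3, which also held lung markers, was the only untreated library inside the range of the treated ones, and cell sheet replicates 3 and 5 were the treated libraries below it. The difference on the log2 scale was 1.05 ± 0.26 (adjusted p = 0.0173), and the call held in all 12 fits with 1 library left out. Remote zone levels were 9.95 to 17.2 CPM (median 13.6) in untreated MI and 17.4 to 31.35 CPM (median 28.2) in cell sheet-treated hearts. These groups did not overlap, although cell sheet replicate 1, at 17.4 CPM, was next to the highest untreated library, and the log2 fold change was 0.92 ± 0.17 (adjusted p = 0.00777), again called in all 12 such fits. Infarct zone medians were 12.3 and 18.8 CPM (log2 fold change 0.70 ± 0.22, adjusted p = 0.473).

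Sfrp1 lay between 33.0 and 78.95 CPM (median 51.9) in the untreated border zone and between 60.6 and 184 CPM (median 141) in the treated one. The treated libraries were above all untreated ones except for replicate 3, which was below 1 untreated library. The change was 2.45-fold (log2 1.29 ± 0.28, adjusted p = 0.00794) and held in all 12 fits with 1 library left out. Infarct zone medians were 38.2 and 56.2 CPM (0.57 ± 0.44, adjusted p = 0.756), and in the remote zone 33.1 and 20.2 CPM (-0.40 ± 0.51, adjusted p = 0.606).

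Dkk2 lay between 9.07 and 15.6 CPM (median 11.2) in the untreated border zone and between 11.6 and 29.4 CPM (median 20.3) in the treated one, with overlap. The difference on the log2 scale was 0.83 ± 0.23 (adjusted p = 0.0257), and 8 of 12 fits with 1 library left out kept the call. It was lost in the edgeR fit of all 9 groups together (0.81 ± 0.31, adjusted p = 0.0643). The infarct zone ranges were 6.87 to 21.3 and 14.15 to 21.8 CPM (0.71 ± 0.27, adjusted p = 0.512). Here only untreated MI replicate 4, at 21.3 CPM, lay inside the treated range.

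Axin2, which had not passed the test between untreated MI and sham, was 2.18-fold higher in the border zone of treated than of untreated hearts. The untreated libraries lay between 3.19 and 6.60 CPM (median 4.525) and the treated ones between 3.59 and 16.1 CPM (median 10.4). Cell sheet replicate 3 was within the untreated range at 3.59 CPM, and the other 5 treated libraries were above it. The log2 fold change was 1.12 ± 0.29 (adjusted p = 0.0196), called in all 12 fits with 1 library left out. Medians of Axin2 were 4.12 and 5.98 CPM (0.48 ± 0.30, adjusted p = 0.71) for the infarct zone, and for the remote zone 4.32 and 4.33 CPM (0.20 ± 0.25, adjusted p = 0.595).

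None of the other SFRPs was called by edgeR with all libraries, whereas DESeq2 called Sfrp4 in the border and Sfrp2 in the infarct zone. Sfrp4 in the border zone lay between 12.7 and 58.6 CPM (median 38.3) in untreated and between 12.95 and 183 CPM (median 133) in treated hearts. Cell sheet replicate 3 was again the lowest treated library. The log2 fold change of 1.65 ± 0.58 (adjusted p = 0.0669) became 1.88 ± 0.45 (adjusted p = 0.0143) without it, which brings the members called in that zone to 5, while the genes called over the whole table went from 2922 to 3054. DESeq2 called Sfrp4 higher there with all 12 libraries (1.65 ± 0.55, adjusted p = 0.0157). Sfrp2 had border zone medians of 119.5 and 184 CPM (0.56 ± 0.44, adjusted p = 0.414). Frzb had the lowest fold change of the members in this zone, with 2.98 to 20.6 CPM (median 15.4) in untreated and 2.55 to 11.1 CPM (median 6.01) in treated hearts. Its log2 fold change was -1.08 ± 0.46 (adjusted p = 0.124). Treated infarct zone medians of Sfrp2 and Sfrp4 were 248 and 78.2 CPM, beside 126 and 29.9 CPM in untreated hearts (log2 fold changes 0.97 ± 0.24 and 1.39 ± 0.43, adjusted p = 0.472 and 0.473 by edgeR). By DESeq2 the infarct zone value of Sfrp2 was 0.97 ± 0.25 (adjusted p = 0.032).

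The remote zone depended on 1 library. Cell sheet replicate 1 held 93.8 CPM of Sfrp2, where the other 5 treated libraries lay between 5.67 and 22.15 CPM and the untreated ones between 14.0 and 102.8 CPM. It held 21.1 CPM of Sfrp4 (others 0.630 to 9.35), 18.0 CPM of Frzb (others 1.07 to 3.82) and 6.35 CPM of Wnt2 (others 1.00 to 5.36). For each of these genes it was the highest of its group. With all libraries the log2 fold changes were -1.09 ± 0.65 for Sfrp2, -1.21 ± 0.90 for Sfrp4, -0.52 ± 0.73 for Frzb and -0.98 ± 0.46 for Wnt2, with adjusted p of 0.249, 0.353, 0.637 and 0.143. Without it Sfrp2 was -2.12 ± 0.47 (adjusted p = 0.00308), Sfrp4 -2.27 ± 0.83 (adjusted p = 0.0412), Frzb -1.87 ± 0.50 (adjusted p = 0.00991) and Wnt2 -1.33 ± 0.43 (adjusted p = 0.0239). That brings the members called from 1 to 5, while the genes called over the whole table went from 2623 to 6450. Wnt5a was called either way, at 1.02 ± 0.15 (adjusted p = 0.000319) without it.

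Wif1 and Dkk3 did not pass the test in any zone. Wif1 had medians of 1.21 and 0.523 CPM in the untreated and treated infarct zone (-0.65 ± 0.50, adjusted p = 0.752). Dkk3 had border zone medians of 333 and 232 CPM (-0.15 ± 0.33, adjusted p = 0.798), with treated libraries from 140 to 533 CPM. The highest of these was cell sheet replicate 3, which was also the lowest treated border zone library in Wnt2, Wnt5a, Sfrp1, Sfrp2, Sfrp4, Dkk2 and Axin2. Its mesothelial and epicardial markers summed to 47.0 CPM, where the other 5 lay between 253 and 687 CPM, and the part of this in its values was not tested.

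Among the marker lists, no fibroblast marker of 8 and no myofibroblast marker of 6 was called between treated and untreated border zones. Of all genes tested there, 18.0% were called. The summed fibroblast level was 17230 to 47880 CPM in untreated and 27310 to 58670 CPM in treated libraries. Mural markers had 3 of 7 genes called higher, endothelial markers 1 of 6 higher, T cell markers 2 of 5 lower and macrophage markers 1 of 6 lower. Adipocyte markers had 2 of 5 tested genes higher, with the highest median log2 fold change of the lists (4.70). Their summed level overlapped (547.6 to 2012 CPM untreated and 1190 to 2085 CPM treated). Sham border zones summed to 757.6 to 3787 CPM, although only 2 of the 6 listed genes passed the filter between untreated MI and sham there. The sum thus rests mostly on those genes and says little about the rest of the list. B and plasma cell markers had 1 of 2 tested genes higher, with a summed level of 2.08 to 5.02 CPM in untreated and 2.43 to 13.95 CPM in treated libraries. Remote zone calls were 3 of 7 mural and 1 of 8 cardiomyocyte markers higher, and 1 of 8 fibroblast, 1 of 6 endothelial, 2 of 4 neutrophil and 1 of 3 T cell markers lower. In that zone 17.1% of all genes tested were called, and 1 of 6 or 1 of 8 markers is near the share of all genes in either zone. The mesothelial and epicardial list had no call of 6 in any zone, with 74.5 to 501 CPM in untreated and 47.0 to 687 CPM in treated border zones. Whether these calls, or reads of human cells of the sheet, bear on the members was not tested.

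**Figure D3:**
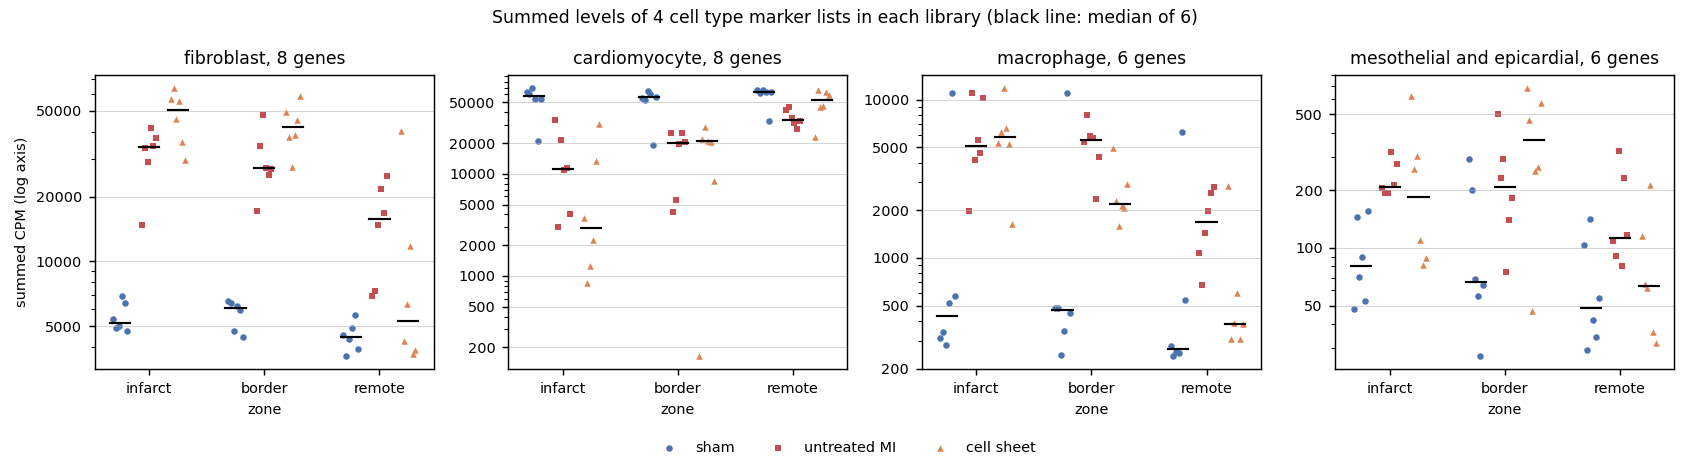
Summed level of 4 marker lists in each library, in CPM on a log axis, by zone and treatment, with the median of 6 as a black line. Fibroblast markers of the treated border zone (27310 to 58670 CPM) overlap those of the untreated one (17230 to 47880 CPM), and in the remote zone the treated library at 40380 CPM, replicate 1, stands above the others.

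**Figure D4:**
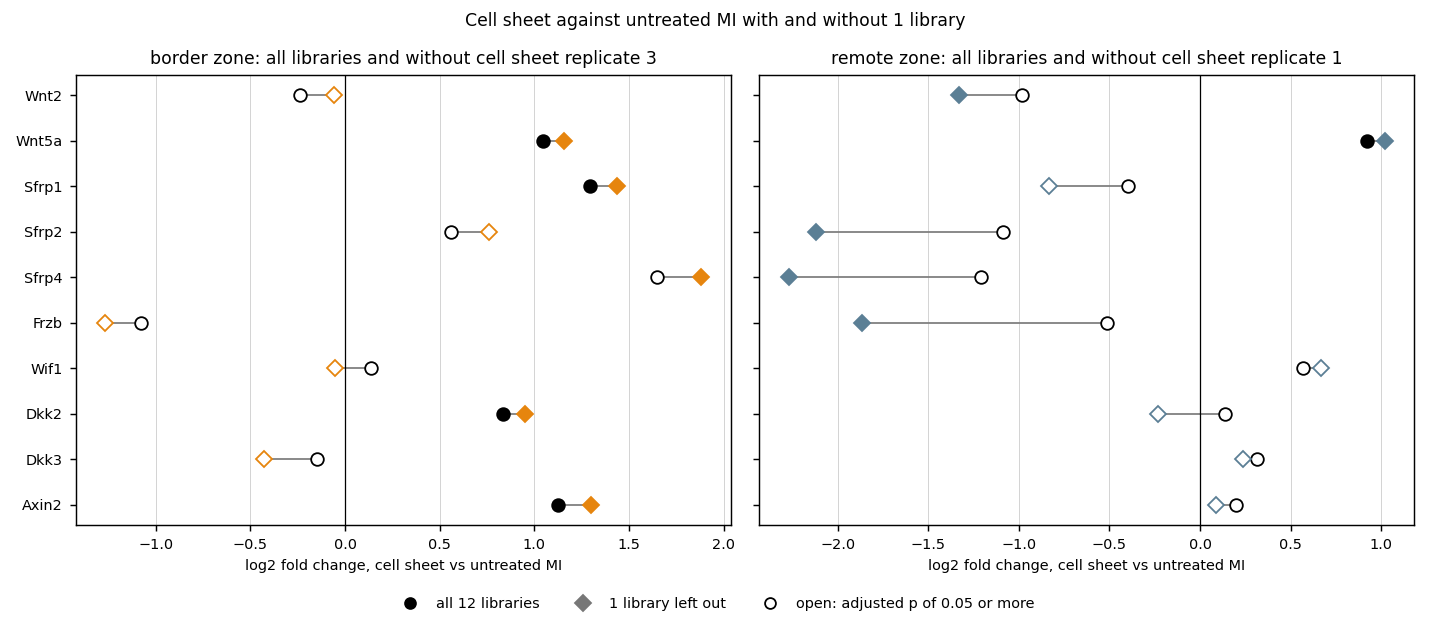
Log2 fold change of each member between cell sheet-treated and untreated MI hearts with all 12 libraries (circles) and with 1 treated library left out (diamonds), replicate 3 for the border and replicate 1 for the remote zone; open symbols have an adjusted p of 0.05 or more. Sfrp2, Sfrp4, Frzb and Wnt2 in the remote zone and Sfrp4 in the border zone are filled only among the diamonds.

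Against sham, cell sheet-treated hearts had 8 of 10 members called in the infarct zone (7 higher and Wif1 lower), where 57.9% of all genes were called. In the border zone 7 were called, all higher, against 43.6% of all genes. In the remote zone none was called, against 0.0066% of all genes, which is 1 of 15157 genes by edgeR with 1520 at an unadjusted p under 0.05 and 220 by DESeq2. Sfrp4 had the largest change, 92.15-fold for the infarct zone (log2 6.53 ± 0.44, adjusted p = 4.165e-06) and 213-fold for the border zone (log2 7.74 ± 0.70, adjusted p = 1.51e-05), again over few counts in sham. Sfrp2 was 24.04-fold and 15.25-fold higher in the infarct and border zones (log2 4.59 ± 0.40 and 3.93 ± 0.53). Sfrp1 was 11.6-fold higher in the border zone (log2 3.54 ± 0.28, adjusted p = 9.41e-06). Wnt5a and Axin2 were called higher than sham in the treated border zone (0.74 ± 0.28, adjusted p = 0.0449, and 0.95 ± 0.33, adjusted p = 0.0326), and 8 and 7 of 12 fits with 1 library left out lost these calls. The infarct zone calls of Wnt2 (0.62 ± 0.24, adjusted p = 0.0415) and of Wif1 (-1.49 ± 0.51, adjusted p = 0.0254) were lost in 11 and 5 of 12 such fits. Without the filter on low counts the calls of Wnt5a (border zone, adjusted p = 0.0552) and Wnt2 (infarct zone, adjusted p = 0.065) were lost, and that of Wnt2 also in the fit of all 9 groups (adjusted p = 0.153). Axin2 in the infarct zone went from 0.58 (adjusted p = 0.158) to 0.83 ± 0.31 (adjusted p = 0.0336) without sham replicate 5, and Wnt2 in the border zone was called without cell sheet replicate 3 (0.98 ± 0.29, adjusted p = 0.0183). Dkk3 in the border zone was called in the fit of all 9 groups (0.75 ± 0.27, adjusted p = 0.023), and Wnt2 (adjusted p = 0.0271) and Dkk3 (adjusted p = 0.023) were called there when scaled by library size alone. Dkk2 of the remote zone did not overlap between treated (4.41 to 17.3 CPM) and sham hearts (2.51 to 4.35 CPM), yet its adjusted p was 0.247 (log2 1.22 ± 0.33).

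The effect of the infarct was tested for a difference between zones with the heart as a block, so that the zones of a heart are compared with each other. Infarct and remote zones differed for 3 of 10 members, which is near the 28.9% of all genes that were called. The log2 fold change of Sfrp2 was larger in the infarct than in the remote zone by 1.76 ± 0.52 (adjusted p = 0.022), that of Frzb by 1.91 ± 0.53 (adjusted p = 0.0169) and that of Dkk3 by 0.53 ± 0.18 (adjusted p = 0.0394). The Frzb difference was called in all 12 fits that left out 1 heart (its libraries of both zones), that of Sfrp2 in 10 and that of Dkk3 in 5. None was called without the block. Dkk3 lost the call without sham replicate 5 (0.48 ± 0.19, adjusted p = 0.0831) and without the filter on low counts (adjusted p = 0.0512). Sfrp1 had a difference of 0.83 ± 0.31 (adjusted p = 0.0596), which passed by DESeq2 (adjusted p = 0.0366), without the filter (adjusted p = 0.0433) and with scaling by library size alone (adjusted p = 0.0301). Sfrp4 had a difference of 1.29 ± 0.88 (adjusted p = 0.286). Infarct against border and border against remote zones gave no member and no gene (0.0% in each, with 1430 and 3995 genes at an unadjusted p under 0.05 and 73 and 1475 genes called by DESeq2). DESeq2 called 3 members between border and remote zones, Sfrp2, Frzb and Dkk3.

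The effect of the cell sheet did not pass the test of a difference between zones for any member or gene. Infarct against border, infarct against remote and border against remote zones each gave 0.0% of all genes, with 2012, 4190 and 3430 genes at an unadjusted p under 0.05 and 383, 1733 and 1199 called by DESeq2. Sfrp2 had the lowest p of the members between the infarct and remote zones, a difference of 2.53 ± 0.79 (adjusted p = 0.119), and Sfrp1 between the border and remote zones, 1.80 ± 0.69 (adjusted p = 0.187). For Wnt5a the border and remote zones differed by 0.19 ± 0.30 (adjusted p = 0.747). DESeq2 called 3 members between the infarct and remote zones, Sfrp1, Sfrp2 and Sfrp4. Without cell sheet replicate 1 the difference of Sfrp2 was 2.99 ± 0.65 (adjusted p = 0.0222), in a fit that called 2011 genes where none was called with all libraries.

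Other genes of the pathway were taken from 8 lists with 73 genes, of which 52 to 56 passed the filter in each zone comparison. Between untreated MI and sham, 21 of 54 tested were called higher and 10 lower in the infarct zone. The border zone had 13 of 54 higher and 7 lower, and the remote zone 9 of 53 higher and 10 lower, where 49.9%, 41.7% and 25.8% of all genes tested were called. Their median log2 fold changes were 0.23, 0.18 and -0.002. Among the ligands Wnt4 had the largest change, from 0.0713 to 1.31 CPM in the sham infarct zone (1 to 18 counts) to 14.6 to 56.1 CPM in untreated MI (log2 5.78 ± 0.57, adjusted p = 4.9e-05), and it was higher in the border and remote zones too (4.75 ± 0.71 and 3.46 ± 0.54). Wnt11, a ligand of the branch without beta-catenin, was lower in all zones (-1.50 ± 0.32, -1.22 ± 0.38 and -0.86 ± 0.28). Of 16 receptors tested, 10 were called higher and 2 lower in the infarct zone. The Wnt5a receptor Ror2 led them, with means of 1.67 CPM in sham and 12.3 CPM in untreated MI (2.86 ± 0.28).

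The R-spondin system, which sets how many Frizzled receptors stay on the cell surface, had 4 of 6 tested genes lower in both the infarct and the remote zone and 2 of 6 in the border zone. Beside the counts of this paragraph stand 49.9%, 41.7% and 25.8% of all genes tested, called in the infarct, border and remote zones. The border zone count of this system is below that share, and lists of 6 genes are small. Rspo1, a ligand of the system, went the other way in the infarct zone, where it was higher by 1.46 ± 0.29 (adjusted p = 0.00229). The largest fall was that of Rnf43, a ubiquitin ligase that removes Frizzled receptors and is itself a known target of the pathway, by 2.01 ± 0.47, 1.92 ± 0.45 and 1.74 ± 0.24 on the log2 scale. Of 6 further targets and feedback genes, 5, 4 and 3 were called higher and none lower. Ccn4, a matricellular protein also called WISP1, had the largest rise in this list (5.46 ± 0.88 in the infarct zone). Axin2 stayed below the threshold where 5 of the 6 other genes in that list passed it. No other secreted antagonist of the 3 tested was called in any zone.

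With the cell sheet, 9 of 56 tested genes were called higher and none lower in the border zone, and 9 higher and 1 lower of 53 in the remote zone, with medians of 0.24 and 0.04. These shares are close to the 18.0% and 17.1% of all genes tested that were called. None of 54 was called in the infarct zone. The border zone calls were Wnt2b among the ligands (means of 1.92 CPM untreated and 6.30 CPM treated, log2 1.72 ± 0.51, adjusted p = 0.036), 3 of 16 receptors led by Ror1 (1.21 ± 0.22, adjusted p = 0.0031), 2 of 8 R-spondin system genes led by Znrf3 (1.25 ± 0.25, adjusted p = 0.00605) and 3 of 9 cytoplasmic genes led by Dvl3 (0.55 ± 0.09, adjusted p = 0.00239). Znrf3, which works like Rnf43 and is likewise a known target, was also the largest rise of the remote zone (1.35 ± 0.23, adjusted p = 0.00668), together with 3 other R-spondin system genes of 6. None of the 6 further targets and feedback genes was called in the border zone beside Axin2. Ccnd1, the cell cycle gene for cyclin D1, fell by 0.54 ± 0.15 on the log2 scale in the remote zone (adjusted p = 0.0284).

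**Figure D5:**
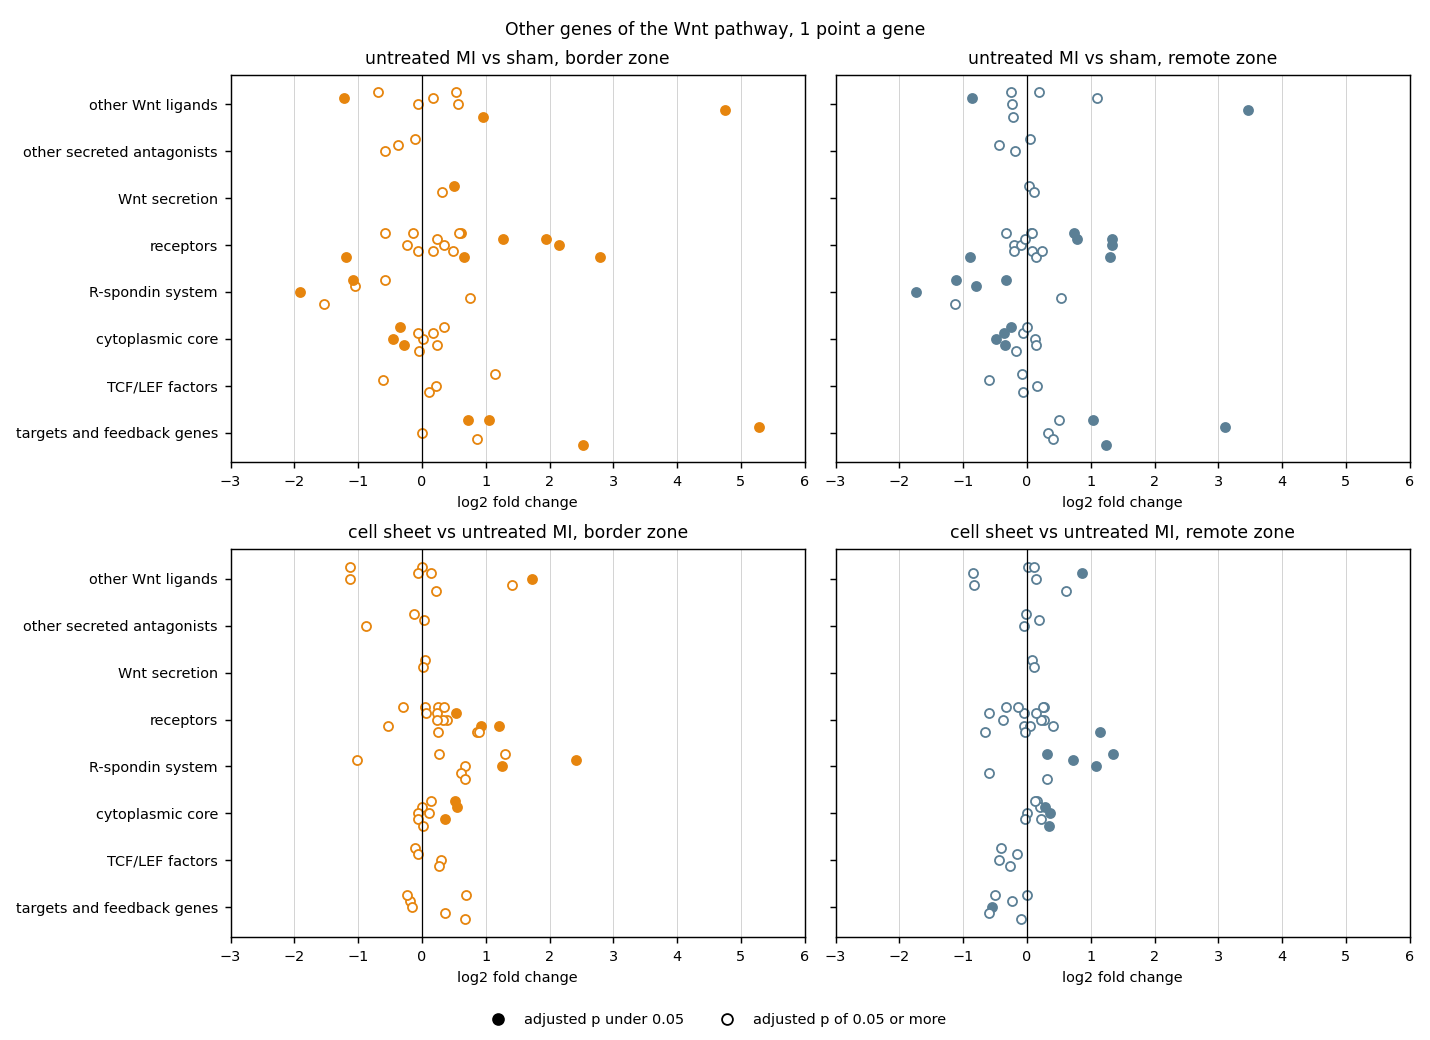
Log2 fold changes of the other Wnt pathway genes by list in the border zone (left) and remote zone (right), untreated MI against sham above and cell sheet against untreated MI below; 1 point is 1 gene and filled points have an adjusted p under 0.05. The filled points at the far right above are Wnt4 (4.75 in the border and 3.46 in the remote zone) and Ccn4 (5.28 and 3.11), and below only 1 filled point lies left of 0, Ccnd1 in the remote zone.

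Among hearts of the same group the members did not all vary together. Over the 54 libraries, after the mean of each of the 9 groups was taken off, Spearman's rho of log2 CPM was 0.782 for Frzb and Dkk3, 0.695 for Sfrp1 and Sfrp4 and 0.686 for Sfrp2 and Sfrp4. The lowest of the 45 pairs was Sfrp4 with Wif1 at -0.398, and Sfrp2 with Axin2 reached 0.568. These points share libraries, and zones share hearts, so the values describe these libraries and carry no test. By the same measure over 14849 genes, the gene most like Wnt2 was Dmkn (0.829), followed by Upk3b (0.748), a known mesothelial gene. Those most like the others were Adgra3 for Wnt5a (0.776), Vasn for Sfrp1 (0.753), Gna15 for Sfrp2 (0.773), Igf1 for Sfrp4 (0.797), Daam2 for Frzb (0.818), Ngrn for Wif1 (0.788), Idh1 for Dkk2 (0.631), Prnp for Dkk3 (0.848) and Lpar2 for Axin2 (0.697).

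Sham replicate 5 was outside the range of the other 5 sham libraries in 26 of 30 member-by-zone values, where the other sham hearts were in 4 to 9. It was low in Wnt5a, Frzb, Wif1, Dkk2 and Dkk3 and high in Sfrp2 and Axin2 in all zones. Its infarct zone library held 8.13 CPM of Wnt5a (median of the others 20.2), 28.3 CPM of Sfrp2 (7.78) and 8.93 CPM of Axin2 (3.32). Cell sheet replicate 1 was outside the range of its group in 17 of 30 values and untreated MI replicate 1 in 14, the most of their groups.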

How the data were processed

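Poly(A) RNA from 54 pieces of rat left ventricle was sequenced, and the deposited files hold whole-number read counts per gene that the authors made with STAR on mRatBN7.2 and a release of the rat annotation. No normalization had been applied. The 5 summary lines at the head of each file (17.0% to 42.8% of its reads) were left out. Samples were grouped by the labels. The labels name the numbers technical replicates, whereas the study's methods give separate animals, and p-values measure only the spread between these samples. Over 135 replicate pairs the chi-square per degree of freedom was 7.97 or more, so no pair agreed within sampling noise.

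Differences were tested with edgeR 4.0.16 (R 4.3.3, quasi-likelihood F test, TMM factors, filterByExpr, Benjamini-Hochberg adjustment over all genes tested, threshold 0.05), with 2 groups per fit. Differences between zones were tested as an interaction with the heart as a block. Levels are CPM with TMM factors over all libraries and are not divided by gene length, so they compare only within a gene. Libraries held 12699204 to 23397754 counts, which limits genes of few counts most. Data were simulated with 200 genes changed by 2 on the log2 scale, up or down, and with no difference between hearts. Of these genes 188 were recovered for cell sheet against untreated MI in the border zone (16036 genes) and 153 for the interaction of border and remote zones (16572 genes). Recovery at the smaller changes of the members called with the sheet in the border zone (0.83 to 1.29) was not tested. DESeq2 1.42.0, other filters and scalings, a fit of all groups and fits without each library were alternatives. For differences between zones these last fits left out each heart, with its libraries of both zones.

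The members and lists were chosen with earlier results of these data known. Named were all 10 members, the called gene with the largest change in each direction in each pathway list (mean of at least 1 CPM), and for likeness the genes with the highest Spearman's rho of log2(CPM + 0.1) among genes with a mean of at least 1 CPM. The sheet held human cells and reads were aligned to the rat genome. Whether reads of human origin were counted on rat genes was not tested.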

Additional observations from a re-analysis of the deposited data

Results flagged for a closer look

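In 14 of 90 member, zone and treatment groups of 6 libraries, 1 library lay far from the other 5 by Dixon's criterion. Chance gives about 1 in 20 for independent groups with normal values. The members share libraries, and CPM were used without a log scale, so the count cannot be set against that rate. In sham replicate 5 the outlying values were Wnt5a at 8.13 CPM in the infarct and 6.98 CPM in the border zone, Sfrp2 at 28.3 CPM, Frzb at 0.172 CPM and Dkk3 at 85.4 CPM in the infarct zone, and Dkk3 at 75.66 CPM in the border zone. In cell sheet replicate 1 they were Sfrp1 at 170.6 CPM and Axin2 at 12.6 CPM in the infarct zone, and Sfrp2 at 93.8 CPM and Frzb at 18.0 CPM in the remote zone. In untreated MI hearts they were Sfrp1 at 100.5 CPM and Dkk2 at 21.3 CPM in the infarct zone of replicate 4, Dkk3 at 180.6 CPM in the infarct zone of replicate 1 and Wnt5a at 26.4 CPM in the border zone of replicate 3.

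The log2 fold change between untreated MI and sham hearts differed between the infarct and remote zones, by the interaction test in edgeR, for Sfrp2 (1.76), Frzb (1.91) and Dkk3 (0.53). The same test called 28.9% of all genes, which is near the share of the members called. None of these members was called without the heart as a block, and Dkk3 kept the call in 5 of 12 fits that left out a heart.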

How the results depend on the processing

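The size of the Sfrp4 and Frzb changes rests on few counts in sham. Of single-member values, 712 kept direction and side of the threshold under another filter, scaling, tool or fit, 16 lost the call, 23 gained it and 9 turned sign. With 1 library left out, or 1 heart for the differences between zones, these numbers were 1661, 56, 18 and 65. The cause of the changes was not tested.

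Same-numbered hearts of different treatments are different animals, and their deviations did not go together in every pair (correlations from -0.734 to 0.611). With that number as a replicate block, 1 member was called between cell sheet and untreated MI in the border zone (Axin2) and 0 in the remote zone, where Wnt5a had an adjusted p of 0.0517 by edgeR. The genes called with the block were 4193 against 6517 (untreated MI and sham, border zone), 1214 against 2922 and 2 against 2623 (cell sheet and untreated MI, border and remote zones) and 0 against 1 (cell sheet and sham, remote zone). Frzb then turned to -0.23 in the infarct zone between cell sheet and untreated MI. In the zone differences, where the heart is the block, deviations of zones of the same heart did not go together in every pair either. Between infarct and border zones the correlations ran from -0.555 to 0.43 (cell sheet), -0.541 to 0.744 (untreated MI) and 0.313 to 0.963 (sham). Leaving out this block gave 0 members for untreated MI and sham between the infarct and remote zones (1431 genes against 4748). It turned Wif1 to -0.03 (untreated MI and sham, infarct against border zone), and Dkk2 to -0.14 and Frzb to -0.54 (cell sheet and untreated MI, infarct against border and border against remote zone).

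DESeq2 called 1 member between cell sheet and untreated MI in the infarct zone (Sfrp2; 85 genes), 2 between cell sheet and sham in the remote zone (Sfrp4 and Dkk2, as did a fit of all 9 groups, 2), 3 in the difference of border and remote zones for untreated MI and 3 in that of infarct and remote zones for the cell sheet. The fit of all groups called 6 genes between cell sheet and untreated MI in the infarct zone and 183 between cell sheet and sham in the remote zone, where the main counts were 0 and 1. Requiring at least 10 counts in every library left 5 members called between cell sheet and sham in the infarct zone (8008 genes against 9078), and Sfrp4, Frzb and Wif1 did not pass that filter. Scaling by library size alone gave 5 members in the infarct and remote zone difference for untreated MI (5400 genes against 4748) and turned the sign of Axin2 (0.02 in the border zone for untreated MI and sham, 0.039 in the remote zone for cell sheet and sham), Wnt2 and Dkk3 (0.05 and 0.064, infarct against border zone, untreated MI) and Dkk2 (-0.002, infarct against border zone, cell sheet).

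With 1 library left out, the members called between cell sheet and untreated MI in the remote zone ran from 1 to 5 (without cell sheet replicate 1). For differences between zones 1 heart was left out, with its libraries of both zones. The members whose effect differed then ran from 1 to 4 (untreated MI, infarct and remote zones), 0 to 1 (untreated MI, border and remote zones) and 0 to 1 (cell sheet, infarct and remote zones). The values below changed sign in at least 1 such fit. For untreated MI and sham, Axin2 ran from -0.21 to 0.36, -0.27 to 0.063 and -0.36 to 0.044 in the infarct, border and remote zones. For cell sheet and untreated MI they were Frzb (-0.37 to 0.42) and Dkk3 (-0.082 to 0.18) in the infarct zone, Wif1 (-0.067 to 0.49) in the border zone and Dkk2 (-0.23 to 0.27) in the remote zone. For cell sheet and sham in the remote zone they were Wnt5a (-0.091 to 0.15), Sfrp2 (-0.19 to 1.28) and Axin2 (-0.22 to 0.25). For the infarct against border difference of untreated MI they were Wnt2 (-0.20 to 0.11), Wnt5a (-0.35 to 0.032), Frzb (-0.10 to 0.29), Wif1 (-0.13 to 0.31), Dkk2 (-0.13 to 0.25) and Dkk3 (-0.13 to 0.046). For its infarct against remote difference it was Wif1 (-0.066 to 0.41), and for border against remote Wif1 (-0.14 to 0.21) and Axin2 (-0.20 to 0.15). For the cell sheet they were Wnt2 (-0.52 to 0.06), Sfrp4 (-0.40 to 0.30) and Dkk2 (-0.14 to 0.22) between infarct and border zones and Frzb (-0.11 to 0.95) between border and remote zones.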
